A study of Mus musculus with 61 samples.

Results

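The Hoxb genes are the members of the HoxB cluster, 1 of the 4 mammalian Hox clusters. They were followed across 61 RNA-seq libraries of mouse stembryos, the embryo-like aggregates of mouse embryonic stem (mES) cells also called gastruloids. All 10 genes of the cluster (Hoxb1 to Hoxb9 and Hoxb13) were taken by their symbol from a table of 55052 genes, and each has 1 entry there. The table also holds 11 Hoxa, 9 Hoxc and 9 Hoxd genes, to which the Hoxb genes were compared. Wild-type (wt) stembryos came from EmbryoMax 129/SVEV mES cells and received the Wnt agonist Chiron between 48 h and 72 h after aggregation, as did all mutants. The wt time course had 2 libraries at each of 8 stages (72, 84, 96, 108, 120, 132, 144 and 168 h). Further wt libraries, the controls of the mutants, numbered 4 at 96 h, 4 at 120 h and 2 at 144 h.

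Every mutant carried a change at the HoxD cluster on chromosome 2, and the HoxB cluster on chromosome 11 was not targeted. Del(CBS1), Del(CBS2) and Del(CBS4) each lacked 1 CTCF binding site of HoxD, CTCF being the protein that halts loop extrusion by cohesin. Del(CBS1-2) lacked the first 2 sites and was made on Del(CBS1) cells, and Del(CBS1-5) lacked 5 sites. Del(d1-d4) lacked the DNA from Hoxd1 to Hoxd4, and Ins(2xCBS-d4d8) carried a cassette with 2 additional CTCF sites close to CBS1. Del(sub-TAD1) lacked a part of the regulatory domain flanking HoxD and carried a transgene that supplies Mtx2. Del(CBS1-5) and Del(sub-TAD1) cells came from blastocysts of mutant mice bred to BL6 × CBA hybrids, so that their strain background, chromosome 11 included, differed from that of the wt line. The other mutants were CRISPR clones of the wt line. Mutants were sequenced at 96 h and 120 h, except Del(CBS4) (120 h and 144 h) and Del(CBS1-5) (96, 120 and 144 h), and the resulting 17 mutant conditions had 2 libraries apiece, apart from the 3 of Del(sub-TAD1) at 96 h. Each library was made from pooled stembryos, and from 108 h on only stembryos that elongated were collected. Where libraries of a condition came from 1 line, the p-values measure the spread between these pools.

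Hox genes encode homeodomain transcription factors that give cells their position along the head-to-tail axis. Within a cluster, the genes at the 3′ end are known to be switched on before those at the 5′ end, and the former act in the hindbrain while the latter act in the trunk and tail. Members with the same number in different clusters are paralogues, which descend from 1 ancestral gene. In the HoxB cluster, Hoxb1 and Hoxb2 are known for their roles in the hindbrain, Hoxb4 also for its role in blood stem cells, Hoxb9 for patterning the thorax and Hoxb13 for the tail bud and the prostate. Known inputs are Wnt signaling, retinoic acid and the Cdx transcription factors.

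On mm10, all 10 genes lie on the plus strand of chromosome 11 and together cover 173.941 kb. Hoxb1 (ENSMUSG00000018973) sits at the 3′ end, at positions 96365752 to 96368256. Hoxb2 follows at 96351631 to 96354012, Hoxb3 at 96323326 to 96347930, Hoxb4 at 96318267 to 96321638, Hoxb5 at 96303512 to 96306120 and Hoxb6 at 96292476 to 96301569. Hoxb7 is at 96286623 to 96290162, Hoxb8 at 96281905 to 96285315 and Hoxb9 at 96271457 to 96276595. Hoxb13 lies apart at 96194316 to 96197447, with a gap of 74.01 kb to Hoxb9. The antisense gene Hoxb3os overlaps Hoxb2 and Hoxb3, and Hoxb5os overlaps Hoxb5 and Hoxb6. The libraries were stranded, but no strand setting is stated for the quantification, so that reads of these 4 members and of their antisense partners could have been exchanged.

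Promoters of 3 members, Hoxb1, Hoxb4 and Hoxb8, were found in the RefSeq table (GRCm38.p6), and the 250 bases before the start of each are shown since they carry letters read by the factors named above. They were searched on both strands for TTTATNG (the CDX motif), AGGTCA (the repeated unit of retinoic acid response elements), CTTTGAT (the TCF/LEF motif of Wnt signaling) and TGATNNAT (the motif of HOX with PBX), and the matches are in capitals. The regions are chr11:96365508-96365757 for Hoxb1, chr11:96318017-96318266 for Hoxb4 and chr11:96281655-96281904 for Hoxb8, all read on the plus strand. Starts are those of RefSeq, and the window of Hoxb1 ends at 96365757, just inside the gene bounds given above (from 96365752).
Hoxb1: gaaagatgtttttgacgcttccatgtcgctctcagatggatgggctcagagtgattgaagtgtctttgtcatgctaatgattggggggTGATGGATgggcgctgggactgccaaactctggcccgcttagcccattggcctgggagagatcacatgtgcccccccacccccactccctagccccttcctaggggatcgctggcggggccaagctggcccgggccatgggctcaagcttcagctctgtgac
Hoxb4: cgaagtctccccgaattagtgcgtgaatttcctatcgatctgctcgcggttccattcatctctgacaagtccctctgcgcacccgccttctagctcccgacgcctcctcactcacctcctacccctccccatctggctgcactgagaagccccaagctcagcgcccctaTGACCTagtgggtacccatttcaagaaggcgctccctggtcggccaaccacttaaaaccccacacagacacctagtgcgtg
Hoxb8: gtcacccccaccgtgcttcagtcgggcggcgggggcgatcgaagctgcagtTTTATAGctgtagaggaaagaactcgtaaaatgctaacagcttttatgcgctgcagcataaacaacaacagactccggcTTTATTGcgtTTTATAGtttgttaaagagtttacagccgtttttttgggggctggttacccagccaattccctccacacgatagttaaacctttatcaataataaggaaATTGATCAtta
The Hoxb1 promoter holds 1 match, to TGATNNAT, at bases 162 to 155 before the start. In Hoxb4, 1 match to AGGTCA lies on the other strand at bases 81 to 76. In Hoxb8, TTTATNG is found 3 times, at bases 199 to 193, 120 to 114 and 110 to 104, and TGATNNAT once on the other strand at bases 11 to 4. CTTTGAT is in none of the 3 windows. Of 32851 promoter windows of the same length, 9.81% hold TTTATNG, 14.0% AGGTCA, 3.21% CTTTGAT and 7.68% TGATNNAT, with or without overlap between motifs. A match describes the letters only, and binding was not measured here.

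Expression is given as FPKM (fragments per kilobase of transcript and per 1 M mapped fragments) as the authors deposited it. Tests used log2(FPKM + 0.1) in limma over 17098 genes, with Benjamini-Hochberg adjusted p-values and a threshold of 0.05, and the fold changes below are on that scale, which understates those of low genes. Shares of all genes given below are those of this main fit. Counts of members in fits with other libraries or settings have no such share beside them. Depth was inferred as 14.2 M to 36.8 M fragments (median 22.7 M). The libraries fell into 2 sets by their content of the mitochondrial transcript mt-Co3, which was at least 995 FPKM in 28 libraries and at most 2.76 FPKM in the other 33. The time course and the 144 h libraries all belonged to the low set, and so did Del(sub-TAD1) at 96 h, Ins(2xCBS-d4d8) and Del(CBS4). Of the wt controls at 96 h and at 120 h, 3 of 4 were in the high set. The second time-course library at 96 h stood apart from the first, and most results that rest on it are given with and without it. At 96 h, comparisons with wt controls of the same set and with the time course at an estimated age were made only with it. Markers of the stembryo moved along the time course, with Pou5f1 (pluripotency) falling from a mean of 1127 FPKM at 72 h to 8.97 FPKM at 168 h.

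Among the Hoxb genes, the 2 most 3′ ones were the first to reach 1 FPKM. At 72 h, when the Chiron pulse ended, Hoxb1 was already at 43.4 and 74.5 FPKM in the 2 libraries and Hoxb2 at 7.14 and 16.5 FPKM. Both were highest 12 h later, with Hoxb1 at 218 and 265 FPKM and Hoxb2 at 63.2 and 63.9 FPKM. From there Hoxb1 went down, to 107 and 119 FPKM at 96 h, 72.5 and 88.4 FPKM at 108 h, 28.0 and 60.8 FPKM at 120 h, and 51.4 and 47.2 FPKM at 132 h. It reached 38.6 and 38.1 FPKM at 144 h and 20.3 and 17.3 FPKM at 168 h. Hoxb2 stayed closer to its maximum, and its libraries lay between 28.6 and 52.2 FPKM at the later stages.

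Hoxb3, Hoxb4 and Hoxb5, the next genes along the cluster, were below 1 FPKM in both libraries at 72 h and above it in both at 84 h. Hoxb3 was listed at 0 in both libraries at 72 h and stood at 14.5 and 11.6 FPKM at 84 h, at least 116-fold higher when set against the limit of 3 fragments per library. It was at 37.6 and 17.6 FPKM at 96 h and between 23.7 and 43.9 FPKM in the 10 later libraries. Hoxb4 went from 0.117 and 0.749 FPKM at 72 h to 10.4 and 9.88 FPKM at 84 h, was highest at 120 h with 12.9 and 15.9 FPKM and came down to 5.65 and 4.70 FPKM at 168 h. Hoxb5, which is known from the neural crest and gut innervation, was the weakest of the 9 detected members in most stages. It had 0 and 0.0325 FPKM at 72 h, 7.05 and 4.86 FPKM at 84 h, and was highest at 168 h with 8.13 and 9.13 FPKM.

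Hoxb6 to Hoxb9, the genes of the trunk, also passed 1 FPKM at 84 h. At that stage Hoxb6, Hoxb7 and Hoxb9 had a smaller share of their highest stage mean than Hoxb3 to Hoxb5. Hoxb8 (45.6%) was above Hoxb3 (37.9%) in this share. Hoxb9 rose from 0.176 and 0.327 FPKM at 72 h to 21.8 and 15.5 FPKM at 84 h, and was at 107 and 124 FPKM at 108 h. It then kept this level in all libraries but 1, with 52.0 and 127 FPKM at 120 h, 139 and 133 FPKM at 132 h, 120 and 115 FPKM at 144 h and 129 in both at 168 h. Per length, Hoxb9 was thus the highest member from 108 h on. At 96 h its libraries were far apart, with 115 and 5.53 FPKM, and those of Hoxb6 (19.7 and 1.61 FPKM), Hoxb7 (20.9 and 1.61 FPKM) and Hoxb8 (34.5 and 3.67 FPKM) were split in the same way. In the low library, replicate 2, the 4 genes were below both libraries of 84 h. Hoxb1 (107 and 119 FPKM) did not share this split. From 108 h on, Hoxb7 lay between 15.4 and 43.0 FPKM, Hoxb8 between 15.2 and 41.2 FPKM and Hoxb6 between 5.84 and 16.9 FPKM, and replicate 1 at 120 h was the lowest for each of them.

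The 2 libraries of 96 h differed in other respects too. Replicate 2 had Cdx4 at 0.953 FPKM against 46.8 FPKM in replicate 1, Cdx2 at 25.3 against 112 FPKM, and the summed cardiac markers (Nkx2-5, Tnnt2, Myl7, Gata4) at 24.9 against 0.836 FPKM. The summed endoderm markers (Sox17, Foxa2, Foxa1, Cldn6) were at 66.3 against 24.3 FPKM. The age of each library was estimated from the 1000 most variable genes outside the Hox clusters, by best match to the interpolated time course. Each time-course library was matched to the series of the other replicate. Replicate 2 came out at 91 h, which was 11 h less than replicate 1. The 2 ages thus rest on different references, each of which holds the other library of 96 h. At 120 h, replicate 1 had the endoderm markers at 74.9 against 9.59 FPKM and the cardiac markers at 11.7 against 1.61 FPKM in replicate 2. The part of any of these in the splits was not tested.

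Hoxb13 stayed at the limit of detection. Its highest value in any of the 61 libraries was 0.172 FPKM, or 9 fragments. It was listed at 0 in 9 libraries, and in 43 libraries it was at or under 3 fragments, which correspond to 0.0371 to 0.0984 FPKM. It never reached a mean of 1 FPKM in a condition and was therefore not tested. From 84 h on, the median number of fragments behind the other members ran from 229 for Hoxb5 to 2304 for Hoxb9, with 38.9 (Hoxb7) as the lowest in any library. These limits cover counting error only.

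**Figure D1:**
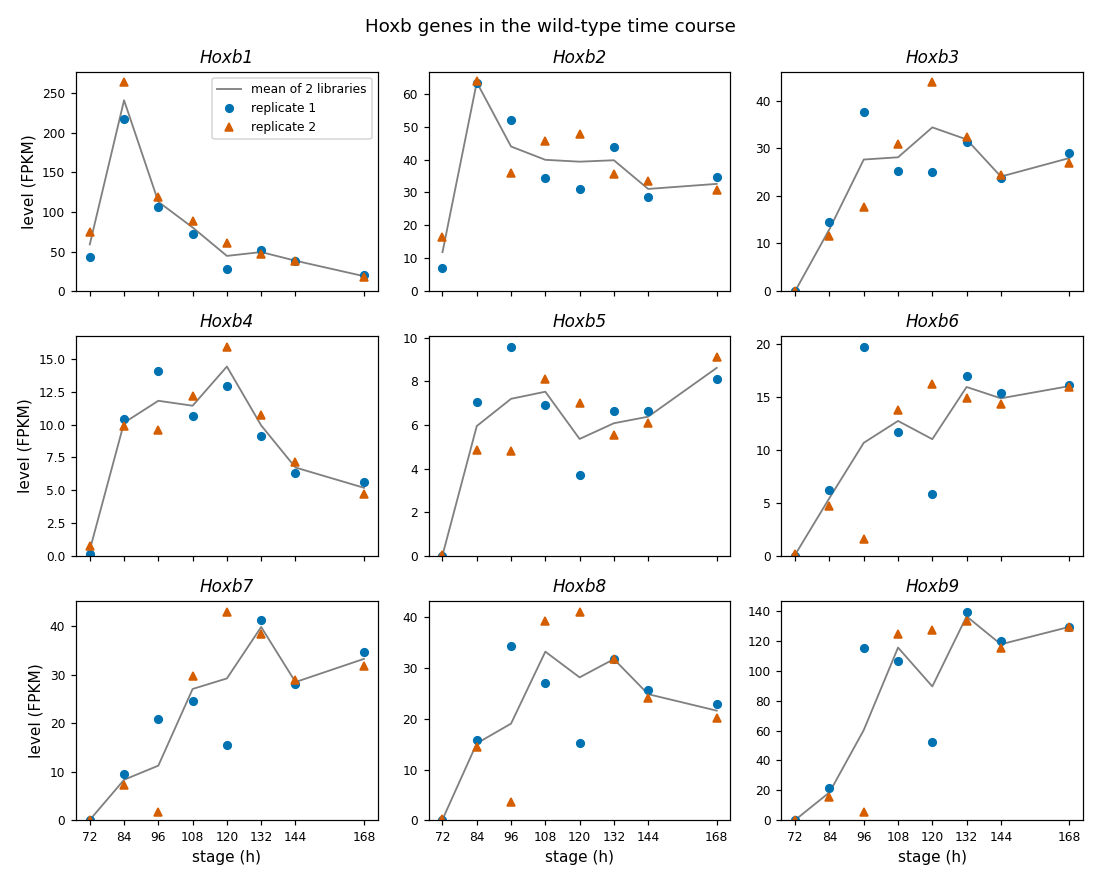
Level of each Hoxb gene (FPKM) in the wild-type time course by stage (hours after aggregation), with points for the 2 libraries of a stage and a line through their mean. Hoxb1 and Hoxb2 are highest at 84 h, Hoxb3 to Hoxb9 first reach 1 FPKM at 84 h, and the libraries of Hoxb6 to Hoxb9 split at 96 h.

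To give the order of onset along the cluster, the earliest stage with 1 FPKM or more in the 2 libraries was taken as onset. By this measure Hoxb1 and Hoxb2 were on at 72 h, Hoxb3 to Hoxb9 at 84 h and Hoxb13 at no stage. Of the 36 pairs among the 9 genes, 14 were in the order from 3′ to 5′, 0 were against it and 22 shared a stage. Sampling every 12 h thus left the order within Hoxb3 to Hoxb9 unresolved. With 0.5 or 2 FPKM as the threshold, or with either replicate alone, the counts were the same. A threshold of 5 FPKM placed Hoxb5 and Hoxb6 at 108 h, and 18 pairs were then in order, 6 against it and 12 tied. Taking 50% of a gene's highest stage mean instead, Hoxb1, Hoxb2, Hoxb4 and Hoxb5 were on at 84 h, Hoxb3, Hoxb6 and Hoxb8 at 96 h and Hoxb7 and Hoxb9 at 108 h, with 23 pairs in order, 3 against it and 10 tied. These means include the split library, replicate 2 at 96 h. In replicate 1 at 96 h, Hoxb9 (115 FPKM) and Hoxb7 (20.9 FPKM) were above 50% of their highest stage means (136 and 39.8 FPKM). Their onset at 108 h by this rule thus rested on replicate 2.

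The share of its own highest stage mean that a gene had reached at 84 h spread the genes further. It was 100% for Hoxb1 and Hoxb2, 70.3% for Hoxb4, 69.0% for Hoxb5, 45.6% for Hoxb8, 37.9% for Hoxb3, 34.0% for Hoxb6, 21.0% for Hoxb7 and 13.7% for Hoxb9. In 30 of the 36 pairs the share was lower in the gene nearer to the 5′ end, and in 5 it was higher, with Hoxb3 lower and Hoxb8 higher than their neighbours. Across these 9 genes, which share their libraries and are not independent replicates, Spearman's rho with position was −0.81. The change from 84 h to 168 h followed the same direction in 29 of 36 pairs, from −3.68 (log2) for Hoxb1 and −0.96 for Hoxb2 to 1.99 for Hoxb7 and 2.79 for Hoxb9. Hoxb4 (−0.97) lay below its neighbours Hoxb3 (1.10) and Hoxb5 (0.53).

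**Figure D2:**
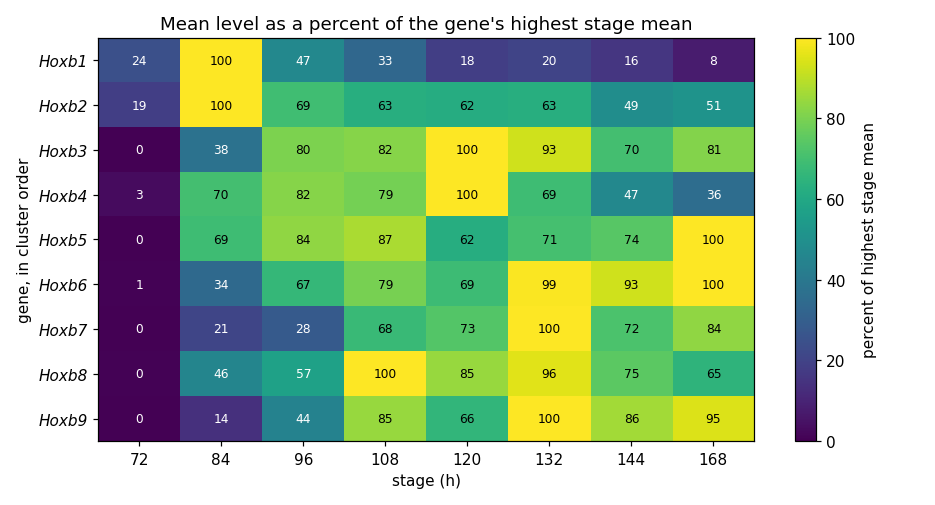
Share of its own highest stage mean (%) that each Hoxb gene reached at each stage of the time course (hours after aggregation), with genes in cluster order. At 84 h the share was 100% for Hoxb1 and 13.7% for Hoxb9, and at 168 h Hoxb1 and Hoxb2 had left their maximum.

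The members of groups 2 to 9 and 13 were then set beside their paralogues of the other clusters, by the same threshold. Among the Hoxa genes, Hoxa2 and Hoxa3 were on at 84 h, Hoxa7 at 108 h and Hoxa6 at 132 h. Among the Hoxc genes, Hoxc4 and Hoxc5 were on at 84 h, Hoxc6, Hoxc8 and Hoxc9 at 108 h and Hoxc13 at no stage. Among the Hoxd genes, Hoxd3, Hoxd4 and Hoxd9 were on at 84 h, Hoxd8 at 108 h and Hoxd13 at 144 h. Hoxb6, Hoxb7 and Hoxb8 passed 1 FPKM at an earlier stage than Hoxa6, Hoxa7, Hoxc6, Hoxc8 and Hoxd8. These stages depend on the threshold. With 0.5 FPKM, Hoxc6 and Hoxd8 were on at 84 h, Hoxc8 at 96 h and Hoxa6 at 108 h, and at 84 h their means were 0.738 (Hoxc6), 0.859 (Hoxd8), 0.587 (Hoxc8) and 0.131 FPKM (Hoxa6). With 2 FPKM these 4 genes had the same onset as with 1 FPKM, and Hoxd9 moved to 108 h. In replicate 1 alone, Hoxa7, Hoxc6, Hoxc8 and Hoxd8 reached 1 FPKM at 96 h, so that their onset at 108 h rested on replicate 2 at 96 h.

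**Figure D3:**
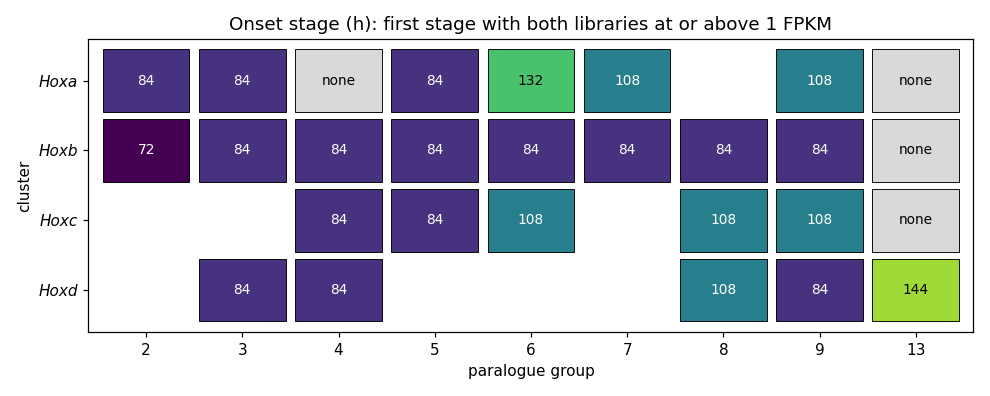
Onset stage (hours after aggregation, first stage with both libraries at 1 FPKM or more) of genes of the 4 Hox clusters by paralogue group, from group 2 on. Hoxb3 to Hoxb9 share an onset at 84 h, whereas in the other clusters genes of groups 6 to 8 follow at 108 h or 132 h by this threshold.

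Between 72 h and 84 h all 9 tested Hoxb genes rose. Of all genes tested, 10.4% rose in this interval. The log2 fold changes were 2.08 ± 0.19 (SE) for Hoxb1 and 2.54 ± 0.24 for Hoxb2, and between 4.57 (Hoxb4) and 7.03 (Hoxb3) for the other 7, with a median over the members of 5.63 against 0 over all genes. Adjusted p-values of limma ran from 6.86e-21 (Hoxb3) to 5.91e-09 (Hoxb6). The libraries of the stages did not overlap for any of the 9, but overlap was not counted over all genes. When only the 4 libraries of these stages entered the fit, 3 of the 9 passed. Of 19 paralogues tested, 13 rose, such as Hoxd4 (4.66), Hoxa3 (3.84) and Hoxc4 (3.98), and 1 fell (Hoxa4, −2.42).

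Known inputs of the Hox genes moved in the same interval. Of 13 tested regulators, 8 rose and 1 fell. Among them Cdx1 rose by 1.96, Cdx2 by 2.47 and Cdx4 by 3.09 (log2), and Aldh1a2, which makes retinoic acid, by 7.41, while the Wnt ligand gene Wnt3 fell by 2.33. In FPKM, Cdx1 went from 61.9 and 146 at 72 h to 392 and 350 at 84 h, and was thus highest at the stage at which Hoxb1 was highest. Of 7 Hox cofactors, which bind DNA together with Hox proteins, 5 rose, such as Meis1 (2.30) and Meis2 (3.11). Of 8 tested genes next to or within the cluster, 0 rose and 0 fell, among them Snx11 (7.03 and 6.61 FPKM at 72 h, 9.82 and 7.98 FPKM at 84 h).

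After 84 h few members moved past the threshold from one stage to the next. From 84 h to 96 h Hoxb1 fell by 1.09 (log2, adjusted p = 4.91e-05) and Hoxb3 rose by 0.99 (0.0049), in an interval in which 8.16% of genes rose and 12.5% fell. Leaving out replicate 2 at 96 h, 7 members passed, Hoxb1 with −1.17 and Hoxb9 (2.64), Hoxb6 (1.85), Hoxb3 (1.53), Hoxb7 (1.33), Hoxb8 (1.18) and Hoxb5 (0.70) as higher. From 96 h to 108 h Hoxb7 (2.17, adjusted p = 0.0068), Hoxb9 (2.18, 0.0124) and Hoxb8 (1.52, 0.0424) rose, among 4.49% of genes that did, but without that library 0 members passed and Hoxb9 did not rise (−0.000162). Within the time course, the rise of Hoxb7 to Hoxb9 therefore fell either before or after 96 h, depending on 1 library. In the 4 wt controls of 96 h, Hoxb9 was at 49.7 to 61.9 FPKM, Hoxb8 at 18.5 to 25.2 FPKM and Hoxb7 at 12.3 to 23.5 FPKM. For each gene these values lay between the time-course libraries of 84 h and those of 108 h. Most of these controls were in the high mt-Co3 set, unlike the time course.

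From 108 h to 120 h Hoxb1 fell by 0.95 (adjusted p = 0.0013), among 1.88% of genes that fell, and without replicate 1 at 120 h 0 members passed. From 120 h to 132 h and from 132 h to 144 h, 0 members passed in limma, with 0 and 0 at an unadjusted p under 0.05, against 2.46% and 5.42% of all genes that moved in either direction. With replicate 1 alone at these stages, 6 members passed from 120 h to 132 h. From 144 h to 168 h Hoxb1 fell by 1.03 (adjusted p = 0.000266), as did 4.38% of genes. Hoxb1 was thus the member that passed in most intervals, and in every interval after 84 h in which it passed it was lower.

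Genes whose profile over the 16 time-course libraries was most like that of a 3′, a middle and a 5′ member were searched among 13028 genes by Pearson's r of log2 values. They were Alpl (0.968), Spred2 (0.949) and Spry2 (0.938) for Hoxb1, Arg1 (0.973), Greb1l (0.962) and Skap2 (0.952) for Hoxb4, and Wfikkn1 (0.996), Rasa3 (0.986) and Itprip (0.984) for Hoxb9. These values describe 16 libraries that share 8 stages, and have no test.

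The antisense genes of the cluster had values that could not be read beside the members without care. Hoxb5os was listed at 0 at 84 h in both libraries, was at 88.1 and 4.57 FPKM at 96 h and at 103 and 138 FPKM at 108 h, and reached 172 FPKM at most in any library. Its libraries at 96 h were split in the same direction as those of Hoxb6. Hoxb3os was at 17.6 FPKM in replicate 2 of 96 h, the library with the lower Hoxb3, and listed at 0 in replicate 1, and it was listed at 0 in all 4 libraries of 84 h and 108 h.

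At 96 h, a level could be followed in 21 libraries of all genotypes. Hoxb1 hardly varied, with 99.2 to 126 FPKM or a 1.27-fold range, and 99.2% of 13707 genes had a larger SD (0.094 for Hoxb1 against a median of 0.259, log2). Ranges widened toward the 5′ end of the cluster. They were 2.05-fold for Hoxb2, 2.94-fold for Hoxb3, 2.04-fold for Hoxb4 and 2.56-fold for Hoxb5, then 12.3-fold for Hoxb6, 21.1-fold for Hoxb7, 11.8-fold for Hoxb8 and 32.2-fold for Hoxb9, which ran from 5.53 to 178 FPKM. Only 19.2% of genes had a larger SD than Hoxb9. The lowest value of Hoxb4 to Hoxb9 was that of replicate 2 of the time course. Without it the ranges were 1.58-fold for Hoxb4, 1.65-fold for Hoxb5, 5.35-fold for Hoxb6, 9.06-fold for Hoxb7, 5.93-fold for Hoxb8 and 19.1-fold for Hoxb9, and those of Hoxb1 to Hoxb3 stayed at 1.27, 2.05 and 2.94. This order was not found at the other stages. At 120 h, over 22 libraries, the ranges were 1.69-fold (Hoxb4) to 4.44-fold (Hoxb9), with Hoxb1 at 2.95-fold, and at 144 h, over 8 libraries, 1.72-fold (Hoxb5) to 3.32-fold (Hoxb9), with Hoxb1 at 3.29-fold.

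**Figure D4:**
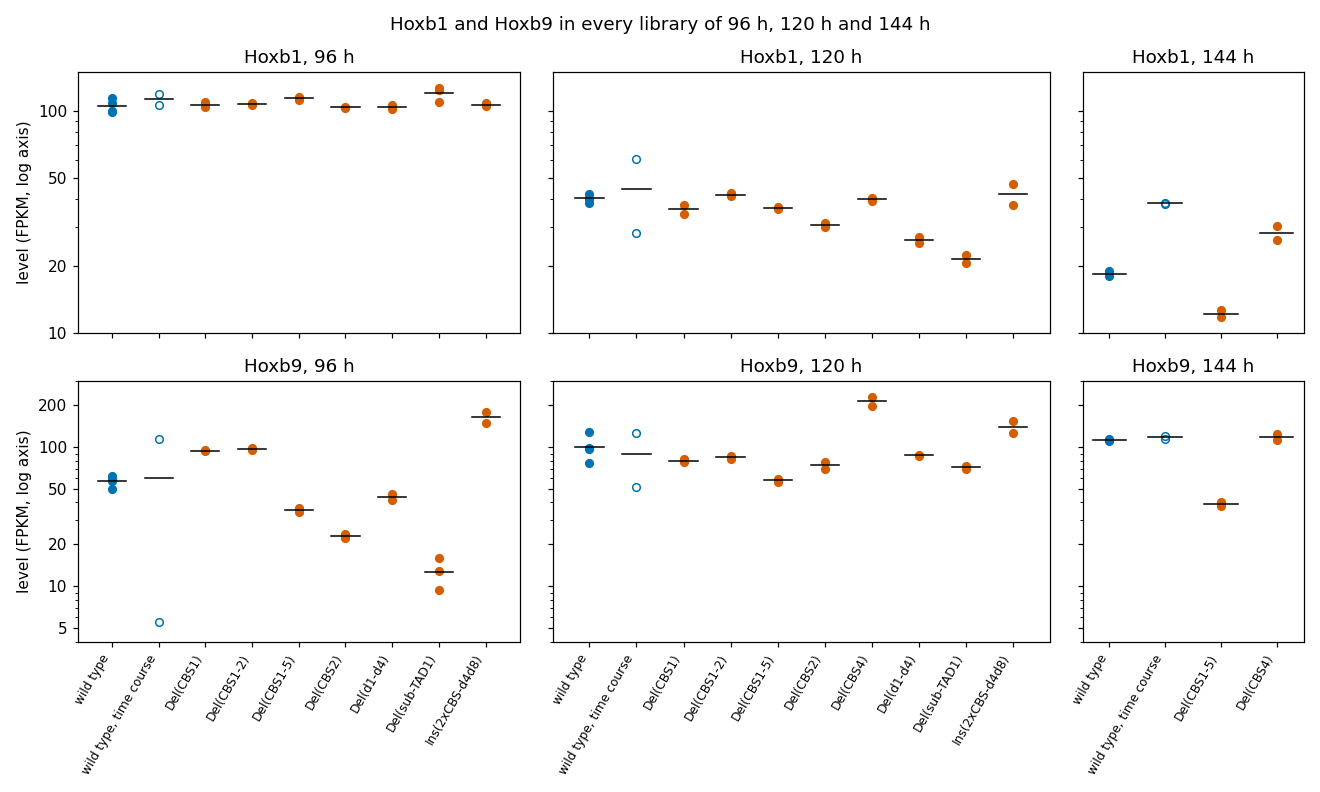
FPKM (log axis) of Hoxb1 and Hoxb9 in each library by condition, for 3 stages, with filled blue points for wild-type controls, open blue points for the time course, orange points for mutants and a line at the mean. At 96 h Hoxb1 lies between 99.2 and 126 FPKM in all libraries while Hoxb9 runs from 5.53 to 178 FPKM.

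Mutants at 96 h were compared with the 4 wt controls, in which Hoxb9 was at 49.7, 60.5, 61.9 and 57.1 FPKM. In Del(sub-TAD1), 5 members were lower, all other than Hoxb1, Hoxb2, Hoxb4 and Hoxb5. Hoxb9 had 16, 9.33 and 12.9 FPKM, a log2 fold change of −2.19 ± 0.44 (SE, adjusted p = 0.000361). Hoxb7 had 3.75, 5.95 and 6.55 FPKM against 20.2, 23.5, 17.8 and 12.3 FPKM in wt (−1.75, 0.0012). Hoxb8 had 7.48, 7.34 and 8.27 FPKM against 18.5 to 25.2 FPKM (−1.48, 0.0021), and Hoxb6 had 5.27, 3.69 and 4.31 FPKM against 7.58 to 16.2 FPKM (−1.29 ± 0.41, 0.0117). The mutant libraries lay below each of the 4 controls for these genes, though not below replicate 2 of the time course (Hoxb9 at 5.53 FPKM). They also lay below the controls for Hoxb3, which had 16.3, 26.8 and 24.9 FPKM against 32.2, 38.4, 38.2 and 27.2 FPKM (−0.60, 0.0158). Hoxb1 was at 110, 125 and 126 FPKM against 99.2 to 115 FPKM, and its change of 0.19 did not pass. Of all genes, 18.1% were lower in this comparison.

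The libraries of Del(sub-TAD1) at 96 h differed from wt in other genes as well. Of 19 paralogues, 10 were lower and 1 was higher, with Hoxa7 (−3.55), Hoxc8 (−2.34) and Hoxc6 (−1.98) in front, and Cdx4 was lower (−2.43). The expressed Hoxa and Hoxc genes were, in the median, 1.18, 0.93 and 0.56 below wt (log2) in the 3 libraries. After division by this median, Hoxb9 (−1.33, adjusted p = 0.018) was the only lower member, and Hoxb1 (1.04), Hoxb4 (0.87), Hoxb5 (0.87) and Hoxb2 (0.54, adjusted p = 0.0267) passed as higher. Hoxb3 (0.25), Hoxb6 (−0.44), Hoxb7 (−0.90) and Hoxb8 (−0.62) no longer passed. The estimated age was 92, 91 and 91 h against 101, 100, 92 and 100 h in wt. All 4 endoderm markers were higher, with sums of 83.7, 53.2 and 42.2 FPKM against 13.1 to 26.4 FPKM, and so were 3 of 5 pluripotency markers (67.6, 180 and 200 FPKM against 31.7 to 110 FPKM), and none of these 9 markers was at 0 in any of the libraries. Over all genes, 3735 of 17098 were higher in this comparison. The part of these markers, and of the different strain background of this line, in the Hoxb result was not tested. Set beside the time course at the estimated age of each library, Hoxb9 differed by −0.84 (mean, log2) in Del(sub-TAD1) and by 0.62 in wt. When the 3 wt libraries of 96 h in the same library set (1 control and the 2 of the time course) were used instead, Hoxb9 alone stayed past the threshold (−1.41, adjusted p = 0.047). Replicate 2 of the time course at 96 h was in these controls and in the values at the estimated age. Neither comparison was made without it. Hoxb9 passed in all 17 alternatives.

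In Ins(2xCBS-d4d8) at 96 h, Hoxb9 was higher, with 178 and 150 FPKM against 49.7 to 61.9 FPKM in wt (1.52 ± 0.50, adjusted p = 0.0223). It was the only member past the threshold, among 12.2% of genes that were higher. Hoxb8 (0.96) and Hoxb7 (0.85) were also above all 4 controls without passing, and Hoxb5 (−0.41) and Hoxb4 (−0.15) were below them. Fewer libraries in the fit changed the count, and 4 members passed without replicate 2 of the time course at 96 h, but 0 passed when either mutant library was left out. Of the paralogues, Hoxa7 (4.56) and Hoxc9 (1.42) were higher and Hoxd3 (−0.63) was lower, and Cdx2 was higher (1.04). The Hoxa and Hoxc genes were up by 0.80 and 0.81 in the median, and the estimated age was 92 and 100 h. Divided by that median, Hoxb9 was at 0.67 and did not pass (adjusted p = 0.363), while Hoxb1 (−0.82), Hoxb4 (−0.996) and Hoxb5 (−1.25) passed as lower. The part of the age was not tested.

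No member passed in the other 5 mutants at 96 h. The shares of all genes that moved in either direction were 4.49% for Del(CBS1-2), 14.8% for Del(CBS1-5), 1.23% for Del(CBS1), 0.298% for Del(CBS2) and 1.19% for Del(d1-d4). At an unadjusted p under 0.05, the members that passed numbered 1, 1, 0, 1 and 0. Hoxb9 libraries still lay outside the range of the 4 controls in each of the 5, though within that of the time-course libraries of 96 h (5.53 and 115 FPKM). They were above the controls in Del(CBS1) (93.2 and 95.5 FPKM) and Del(CBS1-2) (94.8 and 98.4 FPKM), and below them in Del(CBS1-5) (36.7 and 34.2 FPKM), Del(CBS2) (23.7 and 22.1 FPKM) and Del(d1-d4) (41.9 and 45.9 FPKM). The spread of Hoxb9 in the fit includes the split library of the time course. Without the time-course libraries, 4 members passed in Del(CBS1-2), 2 in Del(CBS1-5), 2 in Del(CBS1) and 3 in Del(CBS2). The shares of all genes in that fit are not given here, so these counts have no background beside them.

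**Figure D5:**
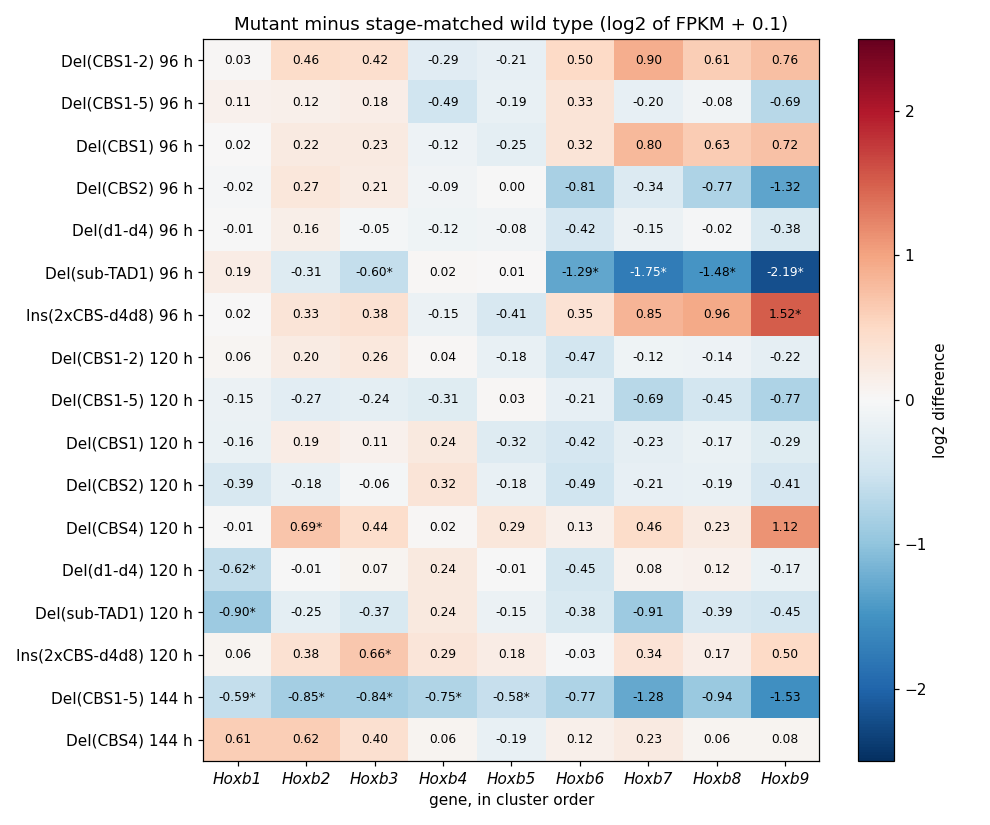
Log2 fold change of each Hoxb gene against the stage-matched wild type in the 17 mutant conditions, on the log2(FPKM + 0.1) scale, with an asterisk where the adjusted p of limma passed 0.05. Del(sub-TAD1) at 96 h and Del(CBS1-5) at 144 h have 5 lower members each, and 5 other conditions have 1 member past the threshold.

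Mutants at 120 h were compared with the 4 wt controls of 120 h. In Del(sub-TAD1), Hoxb1 was lower, with 20.6 and 22.4 FPKM against 40.3, 40.0, 42.3 and 38.5 FPKM in wt (−0.90 ± 0.17, adjusted p = 0.00055), where 2.82% of genes were lower. Hoxb9 changed by −0.45 there and did not pass. The 4 endoderm markers were again higher, at 59.5 and 47.6 FPKM in sum against 4.72 to 15.9 FPKM, and the Hoxa and Hoxc genes were at −0.91 and −0.76 in the median. Divided by that median, Hoxb1 changed by −0.085 (adjusted p = 0.822), and Hoxb4 passed instead, as higher (1.06, adjusted p = 0.00928). The part of the endoderm markers and of the different strain background was not tested. Over all genes, 569 of 17098 were higher in this comparison. In Del(d1-d4), Hoxb1 was at 26.9 and 25.5 FPKM (−0.62, 0.0424), where 1.53% of genes were lower. This call was kept in 6 of 16 alternatives, and it was lost without either mutant library and without replicate 3 or 4 of wt.

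Higher members at 120 h were Hoxb2 in Del(CBS4) and Hoxb3 in Ins(2xCBS-d4d8). Hoxb2 had 42.8 and 44.1 FPKM against 31.3, 26.5, 24.2 and 26.0 FPKM (0.69, adjusted p = 0.0081), among 15.2% of genes that were higher. This call was kept in 12 of 16 alternatives. It was lost without the second mutant library, with wt libraries of the same set, after division by the Hoxa and Hoxc median, and with only the groups compared. In these Del(CBS4) libraries Hoxb9 was at 196 and 231 FPKM against 98.0, 96.2, 76.8 and 129 FPKM. Its change of 1.12 did not pass, but it did without replicate 2 of the time course at 96 h (adjusted p = 0.00018). The neural tube markers were higher in 3 of 4, with sums of 69.7 and 109 FPKM against 9.09 to 26.9 FPKM, and their part was not tested. The other one of the 4 was lower. In Ins(2xCBS-d4d8), Hoxb3 had 42.2 and 47.8 FPKM against 33.4, 32.1, 27.2 and 22.1 FPKM (0.66, 0.0258), among 10.2% of genes, and this call was lost without either mutant library and without replicate 3 or 4 of wt.

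In the remaining 4 mutants of 120 h, 0 members passed. Of all genes, 2.35% moved in Del(CBS1-2), 13.3% in Del(CBS1-5), 2.1% in Del(CBS1) and 0.193% in Del(CBS2). At an unadjusted p under 0.05, 0, 0, 0 and 1 members passed. In Del(CBS1-5), 8 of 9 members had a negative change (median −0.27), and 4 members passed without the time-course libraries.

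At 144 h, all 9 members were below wt in Del(CBS1-5), and 5 of them passed. Hoxb1 had 11.7 and 12.6 FPKM against 18.0 and 18.9 FPKM (−0.59, adjusted p = 0.0209). Hoxb2 had 11.8 and 13.1 FPKM against 22.9 and 22.3 FPKM (−0.85, 0.0069). Hoxb3 had 13.3 and 16.1 FPKM against 26.2 and 26.4 FPKM (−0.84, 0.0155). Hoxb4 had 6.02 and 7.29 FPKM against 11.3 and 11.1 FPKM (−0.75, 0.0446). Hoxb5 had 3.88 and 4.36 FPKM against 6.16 and 6.27 FPKM (−0.58, 0.0438). The change of Hoxb9 was larger, from 111 and 115 FPKM in wt to 40.5 and 37.6 FPKM (−1.53 ± 0.58), but did not pass (0.0528), since the spread of this gene is wider in the fit. Hoxb7 (−1.28) and Hoxb8 (−0.94) also changed more than the members that passed, without passing. With only the groups compared in the fit, Hoxb7 to Hoxb9 passed and Hoxb4 did not. Without the split library of the time course, 8 members passed. Without the first mutant library 0 passed, without the second 2, and without either wt library 1. Of all genes, 8.18% were lower.

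Other genes moved with these in Del(CBS1-5) at 144 h. The estimated age was 137 and 138 h against 157 and 158 h in wt. With 500 genes it was again 137 and 138 h in the mutant, but 126 and 158 h in wt. Of 5 pluripotency markers, 4 were higher and 1 was lower, with sums of 265 and 263 FPKM against 3.88 and 6.06 FPKM, Pou5f1 being 6.57 higher (log2), and Cdx2 was lower (−1.86). Over all genes, 2651 of 17098 were higher and 1399 were lower. The Hoxa and Hoxc genes were at −0.64 and −0.56 in the median. Divided by that median, Hoxb1 and Hoxb5 were at 0.0042 and 0.013, and 0 members passed. Beside the time course at the estimated age, Hoxb1 differed by −1.84 and Hoxb9 by −1.70, where the wt controls of 144 h differed by −0.47 and −0.14. The part of these values, and of the different strain background of this line, in the result was not tested.

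In Del(CBS4) at 144 h, 0 members passed, and 2 did at an unadjusted p under 0.05. Of all genes, 2.05% moved in either direction. Hoxb1 was at 30.2 and 26.2 FPKM against 18.0 and 18.9 FPKM in wt (0.61, adjusted p = 0.0948) and Hoxb2 at 35.8 and 33.7 FPKM against 22.9 and 22.3 FPKM (0.62). The time course at 144 h had Hoxb1 at 38.6 and 38.1 FPKM, above the controls and the mutant. In bulk libraries, fewer cells of a type and less RNA per cell cannot be told apart, here and for every level above.

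Whether a mutation acted differently at 2 stages was tested as the difference of its changes. It passed for 1 member in 1 of 9 such tests per member. The change of Hoxb1 in Del(sub-TAD1) went from 0.19 at 96 h to −0.90 at 120 h, a difference of −1.09 ± 0.22 (adjusted p = 0.00203), among 8.39% of genes with a lower change at 120 h. The mutant's libraries belonged to different mt-Co3 sets at the 2 stages, and against wt libraries of the same set the difference of −1.03 did not pass (adjusted p = 0.0607). Hoxb9 went the other way there, from −2.19 to −0.45, without passing. In the other 8 tests 0 members passed, and at an unadjusted p under 0.05 1 member did in each of 4 of them. The shares of all genes past the threshold in either direction were 0.175% for Del(CBS1-2), 0.257% and 7.07% for Del(CBS1-5) between 96 h and 120 h and between 120 h and 144 h, 0.0526% for Del(CBS1), 0.0117% for Del(CBS2), 8.27% for Del(CBS4), 0.0234% for Del(d1-d4) and 0.392% for Ins(2xCBS-d4d8).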

How the data were processed

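RNA-seq was available for 61 libraries, and conditions were taken from the sample titles. Per the labels and the methods, stranded libraries were trimmed with cutadapt 1.16, aligned on mm10 with STAR 2.7.7a and quantified with Cufflinks 2.2.1 at default parameters, versions being those of the submitters' processing notes. The authors deposited FPKM per gene, scaled to mapped fragments and transcript length. Counts were not used, and a value of 0 can be a failed estimate. The fragments behind an FPKM were inferred from its upper confidence limit as listed by Cufflinks. Depth was the median that they implied over genes of at least 3000 bases with a single transcript (75-base reads). Among genes with few fragments, 50.3% to 91.7% of the inferred numbers were whole within 0.02. These shares were 50.3% to 54.2% in the high mt-Co3 set and 90.0% to 91.7% in the low set. Up to 3 fragments counted as not detected.

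Log2(FPKM + 0.1) of genes with a mean of at least 1 FPKM in at least 1 of 28 conditions was fitted with limma 3.58.1 (R 4.3.3), 1 coefficient per condition, two-sided, Benjamini-Hochberg adjusted over all genes per comparison. Contrasts were consecutive stages (7), mutants against wt controls of their stage outside the time course (17) and differences between stages (9). The comparisons at a stage share their controls. On simulated data, 76% of genes changed by 1 (log2) in Del(CBS1) at 96 h were recovered. The named genes were all 10 members, listed paralogues, regulators, cofactors, flanking genes and cell type markers, and the 3 genes most like Hoxb1, Hoxb4 and Hoxb9. Members and lists were chosen with earlier results of these data known. Alternatives were the pseudocount, filter, scaling, variance model, samples in the fit, replicate block, controls, and each replicate left out. Leaving out 1 time-course library or the whole time course, and other controls or Hoxa and Hoxc scaling for the stage differences, were added after seeing the data. Positions are those of the table. GENCODE vM21 has other bounds for Hoxb2 and Hoxb5. No library pair was identical. Results of 2 genes of the lists are not reported here.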

Additional observations from a re-analysis of the deposited data

Results flagged for a closer look

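The change of Hoxb1 in Del(sub-TAD1) differed between the stages, by a test of the difference itself. Hoxb1 stood at 110, 125 and 126 FPKM at 96 h, against 99.2, 99.8, 115 and 109 FPKM in the 4 controls, and at 20.6 and 22.4 FPKM at 120 h, against 40.3, 40.0, 42.3 and 38.5 FPKM. The difference of the changes was −1.09 ± 0.22 (log2, SE, limma, adjusted p = 0.00203), and both mutant libraries of 120 h lay below each of the 4 controls. The call was kept in 15 of 16 alternatives. The Del(sub-TAD1) libraries were in the low mt-Co3 set at 96 h and in the high set at 120 h, whereas the controls were mostly in the high set at both. With wt libraries of the same set at each stage, the difference was −1.03 and did not pass (adjusted p = 0.0607). The 4 endoderm markers were higher in the mutant at both stages, and their part was not tested. In 18 sets of 4 wt libraries (9 members at 96 h and 120 h), no library was far enough from the others to be singled out, where chance alone would single out about 1 in 20.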

How the results depend on the processing

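Of 32 calls on single members, 322 values under the alternatives kept direction and call, 82 kept the direction only and 7 turned. The cause of each change below was not tested unless fewer samples entered. Counts of members below have no share of all genes beside them, since the shares given above are those of the main fit. Leaving out libraries of the time course changed the sign of Hoxb6 to Hoxb9. From 84 h to 96 h, Hoxb6 was at −1.49 and Hoxb9 at −1.47 without replicate 1, Hoxb8 at 1.11 without replicate 2, and Hoxb7 at 1.33 and Hoxb8 at 1.18 without replicate 2 at 96 h alone, with ranges over all such omissions of −1.49 to 1.85 (Hoxb6), −2.10 to 1.33 (Hoxb7), −1.95 to 1.18 (Hoxb8) and −1.47 to 2.64 (Hoxb9). From 96 h to 108 h, Hoxb8 was at −0.34 and Hoxb9 at −0.11 without replicate 2, and at −0.076 and −0.000162 without replicate 2 at 96 h alone, with ranges of −0.34 to 3.39 and −0.11 to 4.46. Scaling by Hoxa and Hoxc turned Hoxb2 (0.54) and Hoxb3 (0.25) in Del(sub-TAD1) at 96 h, Hoxb1 (−0.82) in Ins(2xCBS-d4d8) at 96 h, and Hoxb1 (0.0042) and Hoxb5 (0.013) in Del(CBS1-5) at 144 h.

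With 1 replicate left out, the members past the threshold ranged from 2 to 7 (main 2) for 84 h to 96 h, 0 to 6 (main 3) for 96 h to 108 h, 0 to 5 (main 1) for 108 h to 120 h, 0 to 6 (main 0) for 120 h to 132 h and 1 to 3 (main 1) for 144 h to 168 h. They ranged from 0 to 2 in Del(CBS1-2) at 96 h, 0 to 1 in Del(CBS1-5) and Del(CBS2) at 96 h and in Del(CBS1-5) at 120 h (main 0 in each), 0 to 4 in Ins(2xCBS-d4d8) at 96 h and 0 to 1 at 120 h, 0 to 2 in Del(CBS4) and 0 to 1 in Del(d1-d4) at 120 h, 1 to 2 in Del(sub-TAD1) at 120 h (main 1 in each), and 0 to 8 (main 5) in Del(CBS1-5) at 144 h. For the stage differences they ranged from 0 to 1 in Del(CBS4) and 1 to 3 in Del(sub-TAD1). With 1 library left in a condition, it is assumed to vary like the others.

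With only the groups compared in the fit, 3 members passed from 72 h to 84 h, 0 from 84 h to 96 h, 96 h to 108 h, 108 h to 120 h and 144 h to 168 h, 2 in Del(sub-TAD1) at 96 h, 0 in Del(CBS4), Del(d1-d4) and Ins(2xCBS-d4d8) at 120 h, and for the stage differences 1 in Del(CBS1-5) (144 h) and 3 in Del(sub-TAD1). Without the time-course libraries, 4, 2, 2, 3 and 4 passed in Del(CBS1-2), Del(CBS1-5), Del(CBS1), Del(CBS2) and Ins(2xCBS-d4d8) at 96 h, 4, 1, 3, 3 and 4 in Del(CBS1-5), Del(CBS2), Del(CBS4), Del(sub-TAD1) and Ins(2xCBS-d4d8) at 120 h, 9 and 2 in Del(CBS1-5) and Del(CBS4) at 144 h, and 2, 4, 2, 2, 1, 4 and 3 for the stage differences of Del(CBS1-2), Del(CBS1-5) (144 h), Del(CBS1), Del(CBS4), Del(d1-d4), Del(sub-TAD1) and Ins(2xCBS-d4d8). With wt libraries of the same library set as controls (those of the time course included), 0 passed in the stage difference of Del(sub-TAD1), and 1 passed in Del(sub-TAD1) and 4 in Ins(2xCBS-d4d8) at 96 h, and 0 in Del(CBS4), Del(d1-d4) and Ins(2xCBS-d4d8) at 120 h. Scaled by Hoxa and Hoxc, 3 passed in Ins(2xCBS-d4d8) at 96 h, all lower and without Hoxb9, 5 in Del(sub-TAD1) at 96 h, of which 4 were higher, 1 (Hoxb4, higher) in Del(sub-TAD1) at 120 h, and 0 in Del(CBS4), Del(d1-d4) and Ins(2xCBS-d4d8) at 120 h and in Del(CBS1-5) at 144 h. With a pseudocount of 1 FPKM, 1 passed from 132 h to 144 h, 1 in Del(CBS1-5) and 2 in Ins(2xCBS-d4d8) at 96 h and 0 in Del(d1-d4) at 120 h. With upper quartile scaling, 3 passed in Ins(2xCBS-d4d8) at 96 h, 3 in Del(CBS4) and 2 in Ins(2xCBS-d4d8) at 120 h. Without the filter, 0 passed in Del(d1-d4) at 120 h and 3 in Del(CBS1-5) at 144 h.

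Replicate numbers do not pair the samples (correlations of deviations of −0.09 to 0.094, with 2 shared numbers in most comparisons). With the replicate block, 0 members passed in Del(d1-d4) and Ins(2xCBS-d4d8) at 120 h and 1 in Del(CBS4) at 144 h. Onset moved as the text gives, to 84, 96 or 108 h at 50% of the highest mean and to 108 h at 5 FPKM. The mean estimated age moved by more than the SD of its libraries with 500 genes to 77.5 h (time course 72 h), 79.5 h (84 h), 115 h (108 h), 142 h (wt 144 h), 91.5 h (Del(CBS1-2) 96 h), 99.5 h (Del(CBS2) 96 h) and 125.5 h (Del(CBS1) and Del(d1-d4) 120 h), and with 2000 genes to 80.5 h (time course 84 h), 107.5 h (108 h), 133 h (120 h), 159.5 h (168 h), 120.25 h (wt 120 h), 124.5 h (Del(CBS1-2) and Del(CBS1) 120 h), 125.5 h (Del(d1-d4) 120 h) and 138.5 h (Del(CBS1-5) 144 h). In groups whose libraries lay further apart it moved by up to 5 h within that SD.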

Other observations

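In Del(CBS4) at 144 h, where no Hoxb gene passed, 5 of 13 regulators were higher and 0 were lower than in wt (limma, adjusted over all genes). They were Cdx1 (1.46, log2), Fgf8 (1.38), Wnt3a (1.34), Rarg (1.15) and Lef1 (0.85), genes of the growing tail end and of the Wnt and retinoic acid pathways. At 120 h in the same line, Wnt3a (−2.06), Cdx1 (−1.06) and Cyp26a1 (−1.35) were lower and Rara (0.86) was higher. Over all genes, 209 of 17098 were higher and 141 lower at 144 h, and 2601 were higher and 3804 lower at 120 h. Tested as a difference between the stages, the change was higher at 144 h for 4 regulators, Wnt3a (3.40), Cdx1 (2.52), Fgf8 (2.10) and Lef1 (1.19), and lower for Rara (−0.54).

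Among the genes beside the HoxB cluster, Calcoco2 was higher in Del(CBS1-5) at 96 h (3.55), 120 h (3.41) and 144 h (5.85) and in Del(sub-TAD1) at 96 h (2.32), but not at 120 h (−0.49, not past the threshold). It was lower in Ins(2xCBS-d4d8) at 96 h (−1.38) and 120 h (−1.87), in Del(CBS4) at 120 h (−1.35), and at 120 h in Del(CBS1-2) (−2.53) and Del(CBS1) (−2.36). Skap1 was higher in Del(sub-TAD1) at 96 h (1.33), and Hoxb5os was lower there (−2.02).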
